A study of Mus musculus with 9 samples.

Results

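Brown fat thermogenic genes were followed in normal mammary glands and mammary tumours of mice, through a list of 10 genes that mark heat-producing adipocytes. A gene counted as measured when a probe set of the array carried its symbol and no other, and the probe set with the highest mean stood for it. By this rule 8 of the 10 were measured, among 22180 genes in all, and all 8 passed the filter on dim genes, which left 17478 genes for testing. Cpt1b and Kcnk3 lay only on probe sets that carry several symbols and were not analysed here.

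The 9 arrays came from 9 female mice of strain FVB, 3 in each group. Normal glands came from littermates labelled Wild-type Wnt1, collected at 533, 556 and 538 days of age. Tumours came from MMTV-Wnt1 mice of genotype Wnt1+/-, in which a mammary tumour virus promoter drives Wnt1 mainly in mammary epithelium. The 3 tumours recorded as non-metastatic were collected at 354, 222 and 298 days, and the 3 recorded as metastatic at 300, 281 and 284 days, each when it had grown to 20 mm. All groups drank 6% sucrose with doxycycline at 200 µg/ml from 6 weeks of age. The normal glands came from older mice than every tumour, and from mice of another genotype. Age, genotype and tumour status therefore cannot be told apart in any comparison with normal gland.

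Brown adipocytes burn fat for heat. Sympathetic nerves release noradrenaline, which raises cyclic AMP in the adipocyte, lipolysis frees fatty acids, and the uncoupling protein Ucp1 lets protons re-enter the mitochondrial matrix without making ATP. Beige adipocytes switch on the same programme within white depots, and the mouse mammary gland lies inside such a depot, the mammary fat pad.

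Levels are RMA values on the log2 scale, and differences are differences of log2 values, so negative differences are lower in tumours. Array medians lay between 5.80 and 5.94, and the 30th percentile of an array between 4.83 and 4.95. Wnt1 lay between 5.45 and 5.71 in normal glands and between 11.20 and 12.40 in tumours. Normal gland 2 stood apart: its mean over 22 markers of skeletal muscle reached 8.98. Normal gland 1 gave 5.88, normal gland 3 gave 6.07, and tumours ranged from 5.56 to 7.21. Over 13 epidermal and sebaceous markers its mean reached 8.91, where the other normal glands gave 5.69 and 5.76 and tumours 5.64 to 6.44. Counts over gene lists are therefore also given without this array. Mammary epithelial markers averaged 8.77 to 9.18 in normal glands and 9.06 to 9.87 in tumours. All arrays measured pieces of tissue, so fewer cells of a type and less RNA per cell cannot be told apart.

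Of the 8 measured genes, 5 fell in non-metastatic tumours against normal gland and 5 fell in metastatic tumours, with none higher. The call was limma's moderated test at an adjusted p under 0.05 (Benjamini-Hochberg over all 17478 genes), and by it 7.60% of all genes were lower and 11.2% higher in non-metastatic tumours, against 6.00% lower and 7.35% higher in metastatic tumours. Ucp1, Elovl3, Cox8b and Cox7a1 fell in both tumour groups, Dio2 in non-metastatic tumours and Cidea in metastatic tumours. Over both tumour groups together 6 of 8 fell, where 9.13% of all genes were called lower and 22.8% in either direction. The list was chosen with earlier results of these data known, so its counts beside those of all genes are a description only. In the same 6 genes every tumour lay below every normal gland, a separation that 10.3% of all genes tested had. Ppargc1a and Prdm16 did not pass in any comparison. The median change of the 8 genes was -3.33 in non-metastatic and -3.80 in metastatic tumours, beside medians of 0.05 and 0.04 over all genes tested. The comparisons of tumour groups with normal gland share the same 3 normal glands. Without normal gland 2 the counts were 5 in non-metastatic and 4 in metastatic tumours. Leaving out this gland also lowered the calls in either direction over all genes tested, from 3288 to 1517 and from 2332 to 861.

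**Figure D1:**
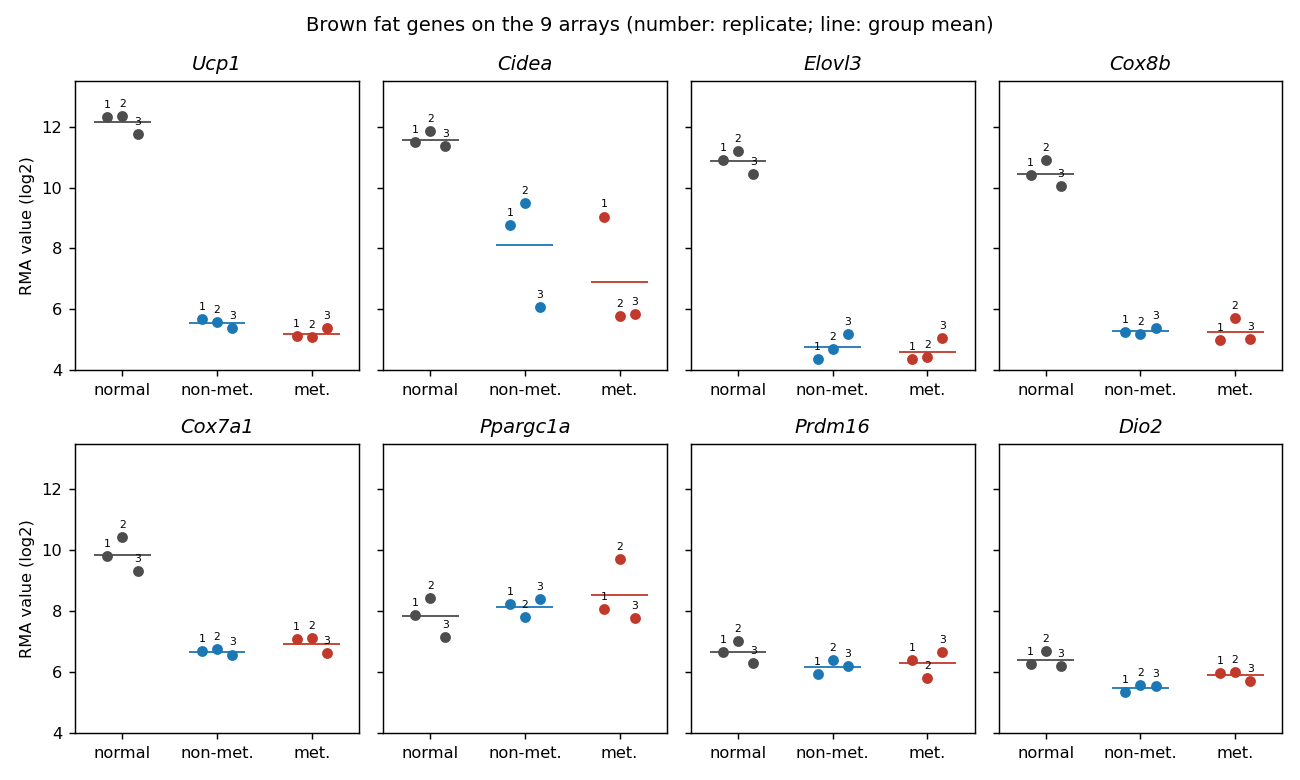
RMA values (log2, vertical axis) of the 8 measured brown fat genes on each array, grouped as normal gland, non-metastatic and metastatic tumour; points are arrays labelled by replicate and lines are group means (n = 3). Ucp1, Elovl3, Cox8b and Cox7a1 show a gap between all normal glands and all tumours, Cidea varies widely among tumours, and Ppargc1a and Prdm16 overlap between groups.

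Ucp1 (probe set 17502899), the uncoupling protein that defines brown and beige adipocytes, read 12.31, 12.36 and 11.75 in normal glands 1, 2 and 3. In non-metastatic tumours 1, 2 and 3 it read 5.70, 5.60 and 5.38, and in metastatic tumours 5.12, 5.10 and 5.39. All 6 tumours were low and within 0.60 of each other, with the tumour groups overlapping, below their own array's median although above its 30th percentile. The fall was 6.59 in non-metastatic tumours (log2 change -6.59, SE 0.18, limma adjusted p = 5.0e-06), or 96.1-fold. In metastatic tumours the change was -6.94 (SE 0.18, limma adjusted p = 3.2e-06), or 123-fold. Ucp1 held rank 1 from the lowest change among the 17478 genes in each tumour group.

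Among the lipid-handling genes, Elovl3 and Cidea differed in how uniform the tumours were. Elovl3 (probe set 17359918), an enzyme that elongates very long chain fatty acids and is induced by cold in brown fat, read 10.91, 11.20 and 10.46 in normal glands. It read 4.37, 4.71 and 5.18 in non-metastatic and 4.36, 4.44 and 5.04 in metastatic tumours. Only 1 tumour of each group lay above its array's 30th percentile, so the tumour values sit at the dim end of the arrays, where RMA compresses differences, and no fold is given. The change was -6.10 in non-metastatic (SE 0.28, limma adjusted p = 5.9e-05) and -6.24 in metastatic tumours (SE 0.28, limma adjusted p = 6.2e-05).

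Cidea (probe set 17351457), a protein of the lipid droplet surface that is abundant in brown fat and is also found in lactating mammary epithelium, read 11.51, 11.87 and 11.36 in normal glands. Tumours spread widely, with 8.75, 9.48 and 6.08 in non-metastatic tumours 1, 2 and 3 and 9.05, 5.78 and 5.86 in metastatic tumours 1, 2 and 3. Each tumour group thus held values near 9 and near 6, and the groups overlapped. The SD over the 6 tumours was 1.76, larger than in 99.6% of all genes tested, while that of Ucp1 was 0.24. The change was -4.68 in metastatic tumours (SE 1.05, limma adjusted p = 0.028) and passed. In non-metastatic tumours it was -3.47 (SE 1.05, limma adjusted p = 0.054) and did not pass. The metastatic call was lost without normal gland 1 (limma adjusted p = 0.078), normal gland 2 (0.084), metastatic tumour 2 (0.078) or metastatic tumour 3 (0.093), while in non-metastatic tumours the gene passed without metastatic tumour 1 (0.033). Without non-metastatic tumour 2 the non-metastatic change was -4.16, and without non-metastatic tumour 3 it was -2.46.

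Both respiratory chain isoforms on the list fell. Cox8b (probe set 17497704), the cytochrome c oxidase subunit 8 isoform of brown fat and striated muscle, read 10.40, 10.90 and 10.05 in normal glands. It read 5.26, 5.20 and 5.40 in non-metastatic and 4.98, 5.71 and 5.03 in metastatic tumours. No tumour came near a normal gland, and all tumours lay below their array's median. The change was -5.17 in non-metastatic (SE 0.26, limma adjusted p = 6.7e-05) and -5.21 in metastatic tumours (SE 0.26, limma adjusted p = 7.9e-05), folds of 35.9 and 37.0.

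Cox7a1 (probe set 17476288), the subunit 7a isoform of the same tissues, read 9.80, 10.44 and 9.31 in normal glands, 6.68, 6.75 and 6.58 in non-metastatic and 7.08, 7.11 and 6.62 in metastatic tumours. Every tumour was lower than every normal gland, yet each stayed above its array's median. The change was -3.18 in non-metastatic (SE 0.27, limma adjusted p = 0.0010) and -2.91 in metastatic tumours (SE 0.27, limma adjusted p = 0.0015), folds of 9.09 and 7.54. Cox8b and Cox7a1 are also genes of striated muscle, whose markers were high in normal gland 2. Without normal gland 2 the changes were -4.94 and -4.98 for Cox8b and -2.89 and -2.62 for Cox7a1 in non-metastatic and metastatic tumours. Elovl3 is also a gene of skin, and without this gland its changes were -5.93 and -6.07. The part of muscle or skin RNA in these changes was not tested.

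Of the regulators on the list, Dio2 fell slightly and Ppargc1a and Prdm16 did not pass. Ppargc1a (probe set 17448001), the coactivator that drives mitochondrial biogenesis and Ucp1 transcription, read 7.89, 8.44 and 7.16 in normal glands. It read 8.24, 7.80 and 8.41 in non-metastatic and 8.08, 9.70 and 7.78 in metastatic tumours, so all groups overlapped and metastatic tumour 2 was highest. The differences were 0.32 (SE 0.51, limma adjusted p = 0.71) and 0.69 (SE 0.51, limma adjusted p = 0.40). Their 95% intervals ran from -0.86 to 1.50 and from -0.49 to 1.88, which leave out a fall of the size seen in Cox7a1. Without metastatic tumour 2 the metastatic difference was 0.10, and without normal gland 3 the non-metastatic one was -0.02.

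Prdm16 (probe set 17433631), a transcriptional regulator that holds adipocytes in the brown and beige state, read 6.66, 7.00 and 6.29 in normal glands, 5.92, 6.39 and 6.19 in non-metastatic and 6.40, 5.79 and 6.66 in metastatic tumours. These values overlapped between all groups. The differences were -0.48 (SE 0.26, limma adjusted p = 0.24) and -0.37 (SE 0.26, limma adjusted p = 0.38). The other probe set of Prdm16 was dimmer and nearly flat, at 5.04 to 5.35 on all 9 arrays.

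Dio2 (probe set 17282970), the deiodinase that makes active thyroid hormone inside brown fat, read 6.25, 6.70 and 6.19 in normal glands, 5.34, 5.57 and 5.55 in non-metastatic and 5.98, 5.99 and 5.71 in metastatic tumours. All tumours lay below the normal glands, by a narrow margin in metastatic tumours. The change was -0.89 in non-metastatic tumours (SE 0.16, limma adjusted p = 0.012), or 1.86-fold. In metastatic tumours the difference was -0.49 (SE 0.16, limma adjusted p = 0.081) and did not pass. Its other probe set was at or below 4.98 on every array, close to the 30th percentile.

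**Figure D2:**
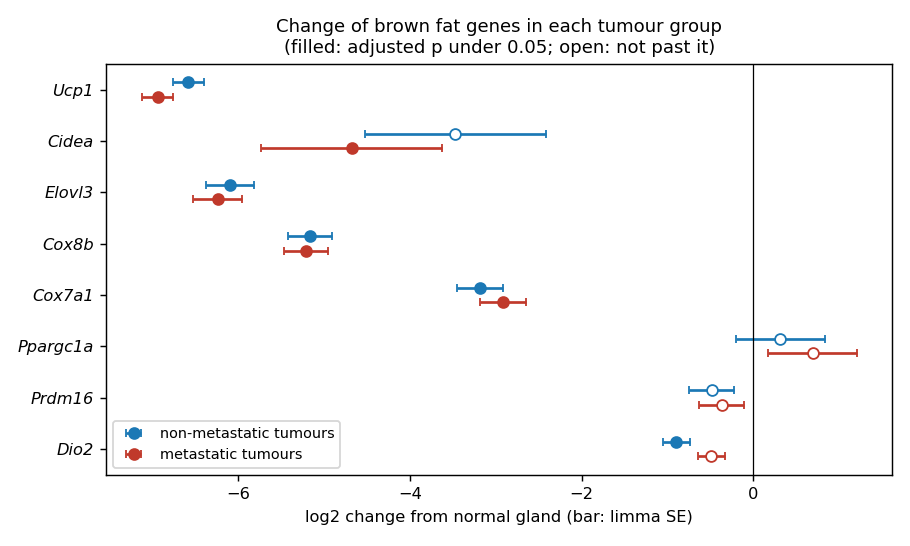
Log2 change from normal gland (horizontal axis) of each brown fat gene in non-metastatic (blue) and metastatic (red) tumours, 3 arrays a group; bars are limma's SE and filled points passed an adjusted p under 0.05. Ucp1 (-6.59 and -6.94) and Elovl3 (-6.10 and -6.24) lie farthest left, and Ppargc1a and Prdm16 are open in both groups.

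The 250 bases before the RefSeq start of 5 of these genes are shown because members with a large fall (Ucp1, Cox8b, Cox7a1) can be set beside Dio2, which fell slightly, and Ppargc1a, which did not pass. RefSeq promoters (GRCm38.p6) were taken for 6 of the 8 measured genes, these 5 and Prdm16. The search left out 1 chromosome, so it does not show that the remaining genes lack a listed promoter. They lie at chr8:83290098-83290347 on the plus strand, chr7:140900447-140900696 on the minus strand, chr7:30183921-30184170 on the plus strand, chr12:90739039-90739288 on the minus strand and chr5:51567726-51567975 on the minus strand. Capitals mark matches, on either strand, to 4 motifs: AGGTCA, the half-site of nuclear receptors such as PPARs and thyroid hormone receptors; TGACG, the half-site of cyclic AMP response factors; TATAAA; and CCAAT. All run 5′ to 3′ along the gene.
Ucp1: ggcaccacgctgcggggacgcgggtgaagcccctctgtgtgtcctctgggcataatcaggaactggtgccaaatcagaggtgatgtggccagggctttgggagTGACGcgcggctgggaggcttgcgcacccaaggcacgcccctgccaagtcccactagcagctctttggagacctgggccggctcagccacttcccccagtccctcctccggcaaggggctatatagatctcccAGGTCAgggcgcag
Cox8b: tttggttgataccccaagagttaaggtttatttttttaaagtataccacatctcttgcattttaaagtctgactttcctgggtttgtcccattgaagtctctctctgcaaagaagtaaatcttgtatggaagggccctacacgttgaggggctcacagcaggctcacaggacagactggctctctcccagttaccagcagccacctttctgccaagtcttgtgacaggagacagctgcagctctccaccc
Cox7a1: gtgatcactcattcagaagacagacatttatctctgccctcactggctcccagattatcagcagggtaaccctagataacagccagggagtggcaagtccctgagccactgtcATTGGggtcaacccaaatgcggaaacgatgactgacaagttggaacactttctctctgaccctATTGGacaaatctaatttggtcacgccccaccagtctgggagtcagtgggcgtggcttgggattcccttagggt
Dio2: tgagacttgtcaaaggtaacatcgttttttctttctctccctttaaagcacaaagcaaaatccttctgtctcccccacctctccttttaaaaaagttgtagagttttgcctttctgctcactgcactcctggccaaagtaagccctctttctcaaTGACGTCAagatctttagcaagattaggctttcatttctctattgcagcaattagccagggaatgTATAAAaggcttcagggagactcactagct
Ppargc1a: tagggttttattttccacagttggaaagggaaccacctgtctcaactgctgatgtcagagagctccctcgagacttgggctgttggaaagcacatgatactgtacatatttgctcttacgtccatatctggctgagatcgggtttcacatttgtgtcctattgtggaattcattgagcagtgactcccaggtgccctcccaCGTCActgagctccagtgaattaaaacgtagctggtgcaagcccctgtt
Ucp1 held 1 AGGTCA, starting 14 bases before the start, and 1 TGACG at 147 bases. Dio2 held TGACG on both strands as an overlapping palindrome, at 95 and 92 bases, and TATAAA at 30 bases. Ppargc1a held 1 TGACG on the other strand at 49 bases, Cox7a1 held CCAAT on the other strand at 137 and 74 bases, and Cox8b held none of the 4. Over all 32851 promoters of the table, the same 250 bases held AGGTCA in 14.02%, TGACG in 17.8%, TATAAA in 12.4% and CCAAT in 33.9%. The 3 genes with the largest falls shown therefore had no motif of the 4 in common, and these matches are letters in a window, not measured binding.

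No brown fat gene passed the test between metastatic and non-metastatic tumours. The count was 0 of 8 with limma, where 0.00572% of all genes were called in either direction. Only Dio2 had an unadjusted p under 0.05, as had 886 of all 17478 genes tested. Dio2 was 0.41 higher in metastatic tumours (95% interval 0.04 to 0.78, limma adjusted p = 0.88), with all 3 metastatic above all 3 non-metastatic values. The share of all genes separated in this way was not counted. Ucp1 differed by -0.36 (95% interval -0.78 to 0.06) and Elovl3 by -0.14 (-0.79 to 0.51). For Cox8b the difference was -0.04 (-0.63 to 0.54), for Cox7a1 0.27 (-0.35 to 0.89) and for Prdm16 0.11 (-0.49 to 0.71). The intervals of Ppargc1a, -0.81 to 1.56, and of Cidea, -3.63 to 1.21, were too wide to say much about either gene. Without non-metastatic tumour 3 the Cidea difference was -2.22, and without non-metastatic tumour 2 it was -0.52.

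Normal glands also varied in a shared order. In all 8 genes normal gland 2 read highest, normal gland 1 next and normal gland 3 lowest, an order found in 23.3% of all genes tested. Normal gland 2 exceeded normal gland 3 by 0.61 in Ucp1, 0.74 in Elovl3, 0.86 in Cox8b, 1.14 in Cox7a1 and 1.29 in Ppargc1a. The gap was 0.71 in Prdm16, 0.51 in Dio2 and 0.52 in Cidea. The same order held in 21 of 22 white adipocyte markers and 13 of 15 fatty acid oxidation genes. It also held in 17 of 28 ubiquitous respiratory chain genes and 7 of 10 endothelial markers. Of skeletal muscle markers 6 of 22 had this order, and of epidermal and sebaceous markers 5 of 11. Normal gland 2 was still highest in 20 of these 22 and in 10 of these 11. The mean over white adipocyte markers was 11.63, 11.92 and 10.86 in normal glands 1, 2 and 3. Its part in the order of the brown fat genes was not tested. Normal gland 1 exceeded normal gland 3 in all 8 genes, by 0.07 in Dio2 to 0.73 in Ppargc1a.

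**Figure D3:**
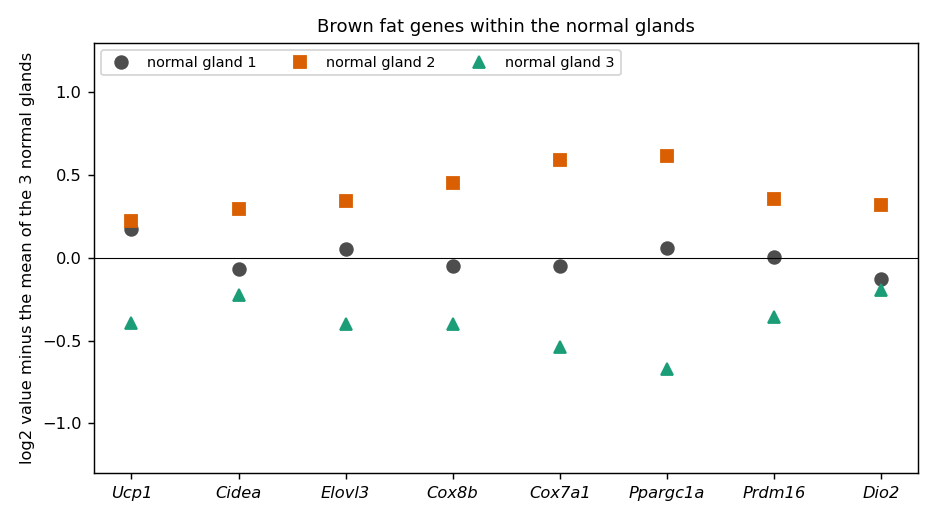
Log2 value of each brown fat gene in normal glands 1, 2 and 3 minus the mean of these glands (vertical axis); each symbol is 1 array. Normal gland 2 is highest and normal gland 3 lowest in all 8 genes, with Ppargc1a and Cox7a1 the most spread.

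Further genes of brown and beige fat were lower in tumours too, as a rule by less. Of 36 measured genes on a list of 40 other brown and beige fat genes, 35 were tested, and over both tumour groups 16 fell, 1 rose and 18 did not pass, with a median of -0.62. The counts were the same in each tumour group taken alone, with medians of -0.59 and -0.65. Over all genes tested 9.13% fell and 13.6% rose. Slc36a2, an amino acid transporter on the surface of brown adipocytes, fell by 3.79 (SE 0.17, limma adjusted p = 2.6e-05), from 9.33 to 10.01 in normal glands to 5.53 to 6.01 in tumours. Otop1, a proton channel found in brown fat, fell by 3.02 (SE 0.29), and Pdk4, a kinase that turns fuel use from glucose to fat, fell by 2.60 (SE 0.49). Ebf2, a transcription factor of brown and beige adipocyte precursors, fell by 2.31 (SE 0.42, limma adjusted p = 0.0087), and its tumour values ran from 6.04 to 7.49. The gene that rose, named after its value was seen, was Gatm, the first enzyme of creatine synthesis, at 1.11 (SE 0.18). Without normal gland 2 the count was 14 lower and 2 higher over both groups. In metastatic tumours alone the number lower was 10 without normal gland 2, 10 without metastatic tumour 3 and 7 without metastatic tumour 1. All genes called in either direction went from 2332 to 861, 639 and 627 in these fits.

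Zic1, Lhx8, Tmem26, Tbx1, Cited1, Tnfrsf9 and Epsti1, used to tell classical brown from beige adipocytes, did not pass with limma over both tumour groups, and they were named after their values were seen. Zic1, a marker of classical brown adipocytes, read 5.08, 4.77 and 5.12 in normal glands and 4.71 to 4.94 in tumours, near the arrays' 30th percentile (limma adjusted p = 0.43). Lhx8, also a classical brown fat marker, read 6.12, 6.16 and 5.45 in normal glands, with a difference of -0.54 (SE 0.17, limma adjusted p = 0.053) in tumours. Among beige markers, Tmem26 read 6.37 to 7.30 and Tbx1 6.68 to 7.13 in normal glands, above the array medians, with differences of -0.71 (limma adjusted p = 0.057) and -0.35 (0.14). Cited1, a beige marker too, read 7.86 to 8.15 in normal glands and 7.02 to 7.99 in tumours. Tnfrsf9, a surface protein used as a beige marker, read 6.02 to 6.12 in normal glands and 5.66 to 7.37 in tumours, and Epsti1 read 7.55 to 7.79 and 6.98 to 9.26.

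White adipocyte markers fell alongside. All 22 measured of 24 fell over both tumour groups (21 in each tumour group taken alone), with a median of -4.50 beside -3.56 for the brown fat genes. Without normal gland 2 the count was 20. Of all genes tested 9.13% fell and 13.6% rose over both tumour groups, shares that stand beside every list count in this paragraph. Lep, the hormone leptin, fell by 5.94 (SE 0.45), and Cidec, a lipid droplet protein related to Cidea, fell by 5.80 (SE 0.47). Retn, the hormone resistin, fell by 5.78 (SE 0.57), and Fabp4, a fatty acid carrier, by 5.40 (SE 0.81). The mean over these markers ran from 10.86 to 11.92 in normal glands and from 6.87 to 7.94 in tumours. Epithelial markers mostly went the other way, with 4 of 10 higher, 0 lower and 6 that did not pass. Krt7 rose by 1.90 (SE 0.35) and Cdh1 by 1.15 (SE 0.17), while 2 of the 10 differences were negative, the lowest at -1.75. Leaving out normal gland 2, non-metastatic tumour 1 or metastatic tumour 2 lowered the number of epithelial markers called higher to 3. Leaving out normal gland 1, non-metastatic tumour 2, metastatic tumour 1 or metastatic tumour 3 lowered it to 2. Without metastatic tumour 3, 1 epithelial marker was also called lower. These fits called fewer of all genes too, from 1898 (without normal gland 2) to 3877 (without non-metastatic tumour 1), beside 3980 with all arrays. Endothelial markers fell in 4 of 10, with Kdr, a receptor for vascular growth factors, at -1.54 (SE 0.25). Leaving out normal gland 2 lowered that count to 2, and leaving out non-metastatic tumour 3 or metastatic tumour 2 raised it to 7. Of 22 skeletal muscle markers 0 passed with limma in either direction (1 at an unadjusted p under 0.05), with a median of -0.89, and without normal gland 2 the median turned to 0.09 with 1 marker higher. Of 11 epidermal and sebaceous markers tested 0 passed with limma (2 at an unadjusted p under 0.05), with a median of -1.15 that turned to 0.22 without normal gland 2. The part of these cell types in the fall of the brown fat genes was not tested.

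**Figure D4:**
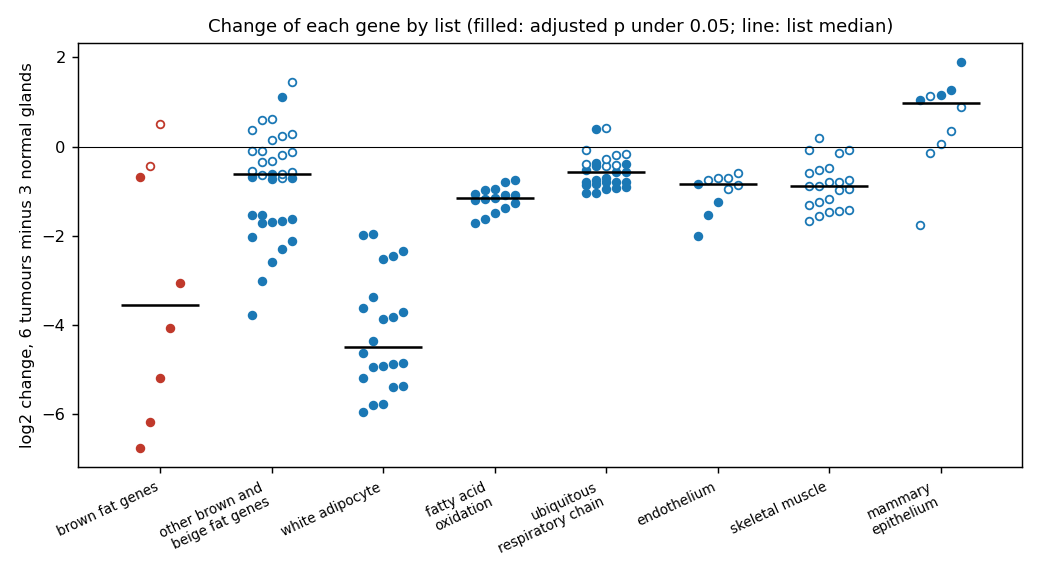
Log2 change of each gene, mean of the 6 tumours minus the 3 normal glands (vertical axis), by list; filled points passed limma's adjusted p under 0.05, open points did not, and lines are list medians. Brown fat genes run from -6.76 (Ucp1) to 0.51 (Ppargc1a), white adipocyte markers all lie below 0, and the medians of the broadly expressed mitochondrial lists are -1.15 and -0.57.

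Mitochondrial genes that most cells use were lower in tumours as well, with differences from -1.70 to 0.41 on the log2 scale. Of 15 fatty acid oxidation genes 15 fell over both tumour groups, with a median of -1.15, and Cpt2, which completes the import of fatty acids into the matrix, fell by 1.70 (SE 0.17). Acadvl and Acadm, dehydrogenases of the oxidation cycle, fell by 1.63 (SE 0.16) and 1.48 (SE 0.23). Of 28 ubiquitous respiratory chain and mitochondrial regulator genes 19 fell, 1 rose and 8 did not pass, with a median of -0.57. Sdha and Sdhb, subunits of succinate dehydrogenase, each fell by 1.04 (SE 0.12 and 0.13). The gene that rose, named after its value was seen, was Nrf1, a transcription factor of mitochondrial genes, at 0.40 (SE 0.09). Its call was lost without normal gland 1 (limma adjusted p = 0.059) or normal gland 2 (0.052). Without normal gland 2, 14 of 15 oxidation genes and 12 of 28 respiratory chain genes fell. In that fit the genes called in either direction, over all genes tested, went from 3980 to 1898. With all arrays 9.13% of all genes fell and 13.6% rose.

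Of 22 tested relatives of the listed genes, members of the same families, 5 fell, 1 rose and 16 did not pass, with a median of -0.14. Of all genes tested 9.13% fell and 13.6% rose. Cidec, Ppargc1b and Cox8a, among those that fell, were also counted on other lists above. Without normal gland 2, 3 fell and 0 rose with limma, and without normal gland 1, 4 fell and 0 rose. Calls over all genes went from 3980 to 1898 and to 1991 in these fits. Each of 6 brown fat genes was also set beside a relative of its own family, through the difference of the log2 values of both genes within an array. Since probe sets differ in brightness, only the shift of this difference between normal glands and tumours was read. The pairs were chosen after their values had been seen, from genes already known to fall, so the shifts are a description with no test. The difference Cox8b minus Cox8a, the isoform of most tissues, shifted by -4.66. Cox7a1 minus Cox7a2, again the isoform of most tissues, shifted by -2.65 and Elovl3 minus Elovl6, an elongase of fat synthesis, by -2.83. Elovl6 itself fell by 3.35 (SE 0.15). Cox8a fell by 0.53 (SE 0.12), a call lost without normal gland 1 (limma adjusted p = 0.059) or normal gland 2 (0.064), while the difference of Cox7a2 was -0.40 (SE 0.12, limma adjusted p = 0.052).

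For Ucp1 minus Ucp3, a relative found in muscle and fat, the shift was -4.18. Ucp3 varied among tumours, from 4.74 to 9.34, and the highest was metastatic tumour 1, where Ucp1 was 5.12. Cidea minus Cidec shifted by 1.72, with tumours on both sides of normal glands. Cidec lay at 5.73 to 7.90 in tumours, where Cidea ran from 5.78 to 9.48. Ppargc1a minus Ppargc1b shifted by 1.18. Ppargc1b, the other coactivator of this family, fell by 0.68 (SE 0.15, limma adjusted p = 0.018), and Pprc1, a related coactivator, rose by 0.48 (SE 0.11, limma adjusted p = 0.019). Both calls were lost without normal gland 2 (limma adjusted p = 0.076 and 0.069), and that of Pprc1 also without normal gland 1 (0.063).

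**Figure D5:**
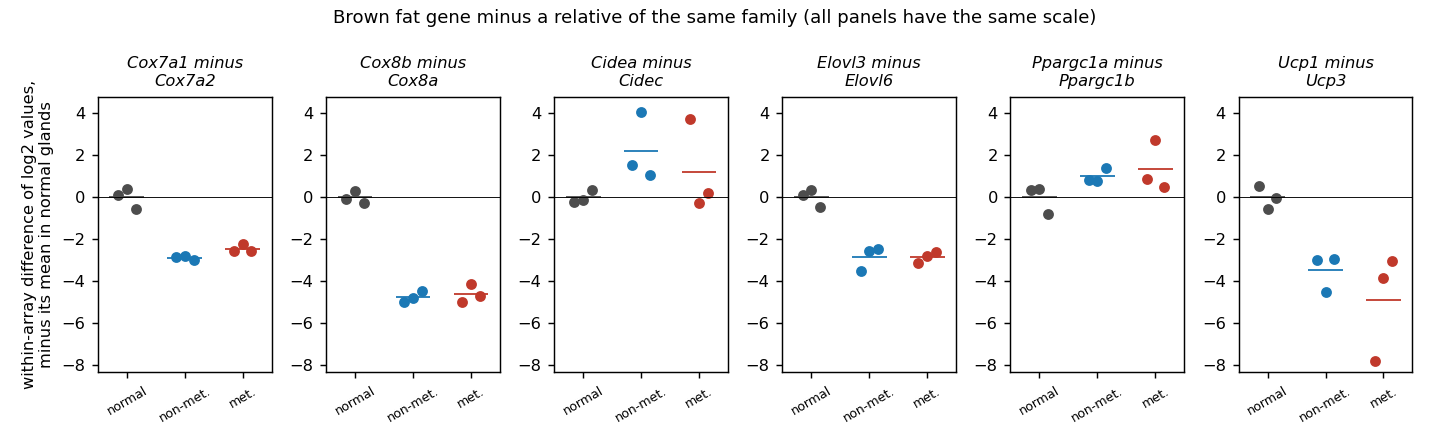
Within-array difference of log2 values between a brown fat gene and a relative of its family, minus the mean of that difference in normal glands (vertical axis), for 6 pairs; points are arrays and lines are group means (n = 3). Tumours lie below 0 for Ucp1, Elovl3, Cox8b and Cox7a1, and Cidea minus Cidec spreads on both sides of 0.

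Outside the brown fat list, the genes whose levels followed each brown fat gene most closely over the 9 arrays were named by Pearson's r. The brown fat genes themselves were left out of this search. It is a description without a test, since normal glands and tumours are pooled in it and their gap enters every r. Closest to Ucp1 were Agpat2 (r = 0.997), Mlxipl (0.996), Dgat2 (0.996), Mrap (0.995) and A530016L24Rik (0.995). Agpat2 and Dgat2 make triglycerides and Mlxipl is a glucose-sensing transcription factor of fat synthesis. Closest to Elovl3 was Mlxipl (r = 0.994), to Cox8b Trarg1 (0.997), and to Cox7a1 Pcca (0.997). Dio2 was followed by Lynx1 (r = 0.977) and Cidea by Stimate (0.982), while the nearest genes to Ppargc1a (Zfp775, 0.951) and Prdm16 (Clpx, 0.948) were less close.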

How the data were processed

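RNA from frozen mammary tissue was hybridised to Affymetrix Mouse Gene 2.0 ST arrays, 1 array a mouse. The deposited log2 values of 41345 probe sets were made with RMA, per the submitters' processing notes. RMA corrects background, equalises array distributions and summarises probes, which compresses dim values. Its version and the genome build are not given in the sources used here. Precision is limited by the number of arrays, since array signal carries no depth.

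Probe sets with exactly 1 gene symbol (23521) gave 22180 genes, each represented by its brightest probe set. Genes that exceeded the 30th percentile of 3 or more arrays (17478) were fitted in limma 3.58.1 (R 4.3.3), with 1 mean per group over 9 arrays, eBayes, 6 residual degrees of freedom and two-sided Benjamini-Hochberg adjustment over all genes tested at 0.05. SEs are limma's, and SDs are over arrays. The fit was tested on simulated data.

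The genes and the 10 further lists were chosen with earlier results of these data known. From each further list up to 4 genes with the largest change past the threshold were named, and genes of the same family. For likeness, the 5 genes nearest to Ucp1 and the nearest to each other brown fat gene were named, with the brown fat genes left out of the search. The promoter motifs were also chosen after the values had been seen. The 18 alternatives were other filters, probe set rules, scalings and fits, and each array left out in turn.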

Additional observations from a re-analysis of the deposited data

How the results depend on the processing

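Of the 18 alternatives, 17 were run for each tumour group against normal gland, 16 for both together and 18 between the tumour groups. The fit with age at collection as a covariate used tumours only. Over the alternatives run, the number of the 8 brown fat genes called ran from 5 to 6 in non-metastatic and from 4 to 6 in metastatic tumours. It ran from 5 to 6 over both, and was 0 between the tumour groups. Ucp1, Elovl3, Cox8b and Cox7a1 were called lower in both tumour groups under every alternative run. With the replicate number as a block the counts were 5, 5, 6 and 0 in these comparisons, and no count changed. Same-numbered arrays did not deviate together (correlations from -0.28 to 0.17), so the numbers were not read as pairs. Array weights called Cidea in non-metastatic tumours (limma adjusted p = 0.037) and Dio2 in metastatic tumours (0.016). In that fit normal gland 1 had by far the largest weight of all arrays, so the normal group rested mainly on it. Genes called in either direction, over all genes tested, rose from 3288 to 5360 in non-metastatic tumours. In metastatic tumours they rose from 2332 to 6498, so these added calls came with many more calls among all genes. Over both tumour groups Cidea missed the threshold without normal gland 1 (0.059) or normal gland 2 (0.067). Differences near 0 changed sign when an array was left out, and the cause was not tested. Leaving out each array in turn, Ppargc1a ran from -0.018 to 0.63 in non-metastatic tumours. Between tumour groups the range was -0.36 to 0.074 for Elovl3, -0.28 to 0.089 for Cox8b, -0.21 to 0.75 for Ppargc1a and -0.075 to 0.36 for Prdm16. For Ucp1 it ran from -6.78 to -6.48 in non-metastatic and from -7.14 to -6.83 in metastatic tumours. In ubiquitous respiratory chain genes the number lower went from 15 to 10 in non-metastatic and from 18 to 11 in metastatic tumours without normal gland 1. Genes called in either direction, over all genes tested, then went from 3288 to 1345 and from 2332 to 793. The number of respiratory chain genes lower was lowest at 9 in non-metastatic tumours without non-metastatic tumour 2, where 1524 of all genes were called. In metastatic tumours it was lowest at 6 without metastatic tumour 3, where 639 of all genes were called. Dim tumour values limit how exactly the changes can be sized in Ucp1, Elovl3 and Cox8b, since RMA compresses signal near background.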

Other observations

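Cidea was the brown fat gene with the widest spread among tumours. The genes nearest to it, outside the brown fat list, were looked for over the 6 tumours alone, a choice made after the values had been seen. Closest was Acly (r = 0.999), ATP citrate lyase, which supplies acetyl-CoA for fatty acid synthesis. Acly read 11.08, 11.26 and 10.43 in non-metastatic tumours 1, 2 and 3, and 11.10, 10.32 and 10.37 in metastatic tumours 1, 2 and 3, against 12.31 to 12.44 in normal glands. The same 3 tumours, non-metastatic 1 and 2 and metastatic 1, were high in both genes. Next came Chfr (r = 0.996), Emc7 (0.993), Rogdi (0.993) and 4930415O20Rik (0.990). With 6 arrays and 17478 genes searched, correlations of this size are a description of these tumours only, and no test was made.

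Among markers of sympathetic nerve and Schwann cells, 1 of 7 rose and 1 fell over both tumour groups, where 13.6% of all genes rose and 9.13% fell. Which cells carried the called genes was not tested. Sox10, a transcription factor of Schwann cells, differed by 1.87 (SE 0.52, limma adjusted p = 0.036) and missed the threshold without any of the 6 tumours in turn, with adjusted p from 0.058 to 0.072. Pmp22, a myelin protein, differed by -1.78 (SE 0.49, limma adjusted p = 0.034) and missed it without normal gland 1 (0.116), normal gland 2 (0.125) or any metastatic tumour (0.052 to 0.068).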
